A study of Homo sapiens with 24 samples.

Results

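The 40 genes described here encode proteins that build ribosomes: RNA polymerase I and its factors, the protein cores of the small nucleolar ribonucleoproteins, nucleolar chaperones, and the assembly factors of the small and large subunits. They were chosen by symbol from a fixed list, with no measured value in the rule, though earlier results of these data were known. All 40 were found among the 14119 genes of the deposited table, and all 40 were expressed well enough to be tested.

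RNA polymerase I copies ribosomal DNA in the nucleolus into one long precursor RNA. Box C/D and box H/ACA ribonucleoproteins, guided by small nucleolar RNAs, methylate and pseudouridylate that precursor, while assembly factors fold it, cut it and load ribosomal proteins onto it. Growing tumour cells carry large nucleoli, and MYC is well known to bind and activate many genes of this pathway. The libraries were made from poly(A) RNA, so the values below are of messenger RNA; ribosomal RNA itself was not measured.

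The samples were xenograft tumours grown from the human colorectal adenocarcinoma line COLO320DM. They form 8 groups of 3 libraries: each combination of a hairpin (labelled shNT or sh1487), no cDNA or a cDNA, and a diet without or with doxycycline. Doxycycline was given from a mean tumour size of 150 mm3, and collection followed on day 3 (72 hr). Neither the gene targeted by sh1487 nor the cDNA is named in the labels. The labels leave unsaid whether a line is a clone and whether the 3 replicates are 3 tumours, so the p-values here reflect spread between samples that may be technical. Values are in CPM, a gene's reads scaled to the library's effective size, and a change is the log2 of CPM plus 1, which understates the change of genes with low values.

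Recovered reads ranged from 44004848 to 80202279 per library, and 3 reads of a gene stand at 0.0368 to 0.0711 CPM, a floor that covers counting error only. Mitochondrially encoded genes took 9.98% to 21.5% of reads, with the highest share in library 3 of shNT on doxycycline with cDNA. Of the intestinal epithelial markers, CDX2 was at 985.9 to 2101 CPM, KRT18 at 30.23 to 129.5 CPM and KRT8 at 3.47 to 446.2 CPM, while EPCAM did not exceed 2.92 CPM, CDH1 1.23 CPM and VIL1 1.61 CPM, so these last 3 epithelial genes were near 0. Host mouse reads were not separated here. In these bulk samples fewer cells of a type and less RNA per cell cannot be told apart.

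The series title names β-catenin, and CTNNB1, its gene, served to check the labels. In the sh1487 line without cDNA CTNNB1 stood at 214.7, 230.2 and 234.5 CPM without doxycycline and at 42.5, 45.57 and 41.86 CPM with it. The sh1487 line with cDNA held 526.7, 535.6 and 460.1 CPM without and 610.1, 600.9 and 569.6 CPM with doxycycline. CTNNB1 was thus low in one group of the 8. MYC also fell in that group: with sh1487 it went from 3911, 3588 and 3600 CPM to 1584, 1567 and 1633 CPM without cDNA (log2 change −1.21 ± 0.13 SE, limma adjusted p = 2.86e-08), and from 3240, 3494 and 3035 CPM to 3151, 3216 and 3007 CPM with cDNA (−0.06 ± 0.13 SE, limma adjusted p = 7.28e-01). In some other comparisons CTNNB1 passed the test and MYC did not. In the shNT line with cDNA, CTNNB1 fell with doxycycline (−0.51 ± 0.14 SE, limma adjusted p = 8.46e-03). Its values overlapped, at 701.5, 746.2 and 525.2 CPM without doxycycline and 493.7, 586.9 and 330.9 CPM with it. MYC stood there at 3033, 3677 and 2332 CPM and at 2790, 3553 and 2346 CPM (−0.05 ± 0.13 SE, limma adjusted p = 7.88e-01). In both groups each gene was highest in the second library and lowest in the third. Between the uninduced lines with and without cDNA, where CTNNB1 was higher with cDNA, MYC stood at −0.18 ± 0.13 with sh1487 and −0.16 ± 0.13 with shNT (log2, SE; limma adjusted p = 3.39e-01 and 4.71e-01).

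Promoter sequences are shown first because a motif in them, which the choice of genes did not use, was found in a part of the members. The E-box CACGTG, the palindrome that MYC with its partner MAX is known to bind, was searched from 250 bases before to 50 bases after each RefSeq start site (GRCh38.p14), where it reads the same on both strands. Of the 34 members matched to a promoter, 11 (32.4%) held it, against 9.96% of 10405 tested genes and 7.43% of all 27305 promoters in the table. The variant CACGCG, or CGCGTG on the other strand, was in 29.4% of members, against 18.1% of tested genes. Either motif was in 55.9% of members and 26.1% of tested genes. The shares for 117 promoters of other ribosome assembly, polymerase and exosome genes, listed further on, were 26.5%, 33.3% and 51.3%.

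The sequences below run 5′ to 3′ from 100 bases before the start to 30 bases from it (180 before for NOP10), with the E-box in capitals. FBL, NOP14, RRP9 and NOC3L are shown because they carry an E-box beside the start and fell strongly, NOP10 because it carries a pair and its change did not pass the test, and DKC1 because it fell with none in its window. Their positions are FBL chr19:39846350-39846479 (minus strand), NOP14 chr4:2963377-2963506 (minus strand), RRP9 chr3:51941875-51942004 (minus strand), NOC3L chr10:94362910-94363039 (minus strand), NOP10 chr15:34343107-34343316 (minus strand), DKC1 chrX:154762764-154762893 (plus strand).
FBL: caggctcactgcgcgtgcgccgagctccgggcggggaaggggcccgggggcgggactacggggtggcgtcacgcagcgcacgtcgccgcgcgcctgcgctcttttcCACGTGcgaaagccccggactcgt
NOP14: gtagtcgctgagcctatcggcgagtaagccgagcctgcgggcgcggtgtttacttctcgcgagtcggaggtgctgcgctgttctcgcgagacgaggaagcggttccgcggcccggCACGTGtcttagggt
RRP9: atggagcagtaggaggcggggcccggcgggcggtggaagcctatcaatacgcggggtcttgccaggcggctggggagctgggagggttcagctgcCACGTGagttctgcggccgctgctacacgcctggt
NOC3L: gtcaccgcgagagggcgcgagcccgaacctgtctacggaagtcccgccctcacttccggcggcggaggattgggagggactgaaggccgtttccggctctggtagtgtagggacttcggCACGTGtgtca
NOP10: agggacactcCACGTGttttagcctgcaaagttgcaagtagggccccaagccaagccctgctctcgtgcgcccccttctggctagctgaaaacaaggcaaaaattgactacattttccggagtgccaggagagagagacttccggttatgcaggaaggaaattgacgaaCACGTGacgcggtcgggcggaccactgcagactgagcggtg
DKC1: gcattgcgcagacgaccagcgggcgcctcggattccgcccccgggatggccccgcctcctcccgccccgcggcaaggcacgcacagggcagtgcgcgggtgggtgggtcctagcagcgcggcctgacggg
The E-box stands within 20 bases of the start in FBL, NOP14, RRP9 and NOC3L. The 12 E-boxes of the members began between positions −170 and 36, the first transcribed base counted as 1, and 11 of them lay within 50 bases of the start. By role, 6 of 11 small subunit genes, 3 of 10 large subunit genes, 1 of 4 box H/ACA genes and 1 of 2 box C/D genes held CACGTG, and 0 of 4 RNA polymerase I genes and 0 of 3 nucleolar scaffold genes did. Among the RNA polymerase I genes 3 of 4 held the variant. A match describes these letters in this window and not a bound site.

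**Figure D1:**
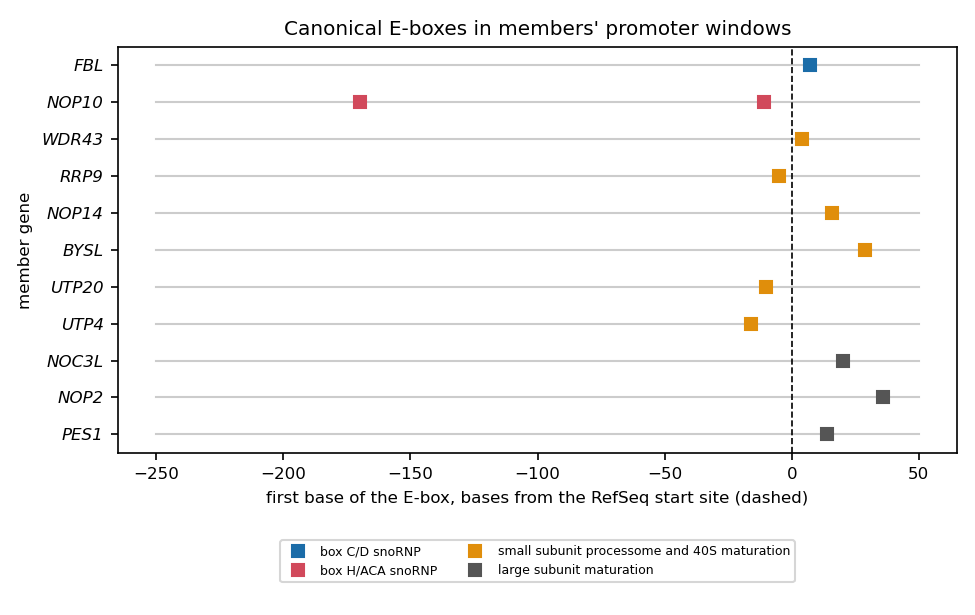
Position of each CACGTG in the promoter windows of the 11 members that hold one; the horizontal axis is the distance in bases of the first E-box base from the RefSeq start (dashed), grey lines span the window searched, and colours are role classes. All squares but 1 lie within 50 bases of the start, the exception being the upstream E-box of NOP10 at −170.

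With doxycycline in the sh1487 line without cDNA, nearly the whole set fell. Of the 40 members, 38 fell, 1 rose (RRN3) and 1 did not pass the test (NOP10), at a limma adjusted p under 0.05 over 13832 genes. Of all genes tested, 37.5% fell and 37.4% rose, and the median change of all genes was 0.01 against −0.82 for the members. The summed level of the members went from 8350 ± 141.1 CPM (SD, n = 3) to 4166 ± 40.48 CPM. Much of this sum lay in NPM1 (means of 2134 and 896.8 CPM) and NCL (1735 and 768.2 CPM). Members kept 33.6% (FBL) to 123% (RRN3) of their level, with a median of 55.1%, and 13 of them kept under 50%. In all 38 that fell, every library on doxycycline lay below every library without it, which held for 41.8% of tested genes; the opposite order held for RRN3 and for 42.1% of tested genes. In 31 members (77.5%) the 3 libraries of this group were also below all 21 other libraries, against 21.7% of tested genes; the 9 others were NOP10, BOP1, WDR75, NOC2L, NOC4L, UTP20, BYSL, POLR1A and RRN3.

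In the shNT line without cDNA the members moved the other way under doxycycline: 23 rose, 0 fell and 17 did not pass the test, with 18.5% of tested genes rising and 18.7% falling. Their median change was 0.25, and LAS1L, a nuclease-complex subunit that acts on the large subunit precursor, rose most (0.54, limma adjusted p = 1.17e-06). Calls for NOC2L, POLR1A, BOP1, PES1 and UTP20 were lost without single libraries, and 19 members passed without the second shNT library off doxycycline. The difference of the doxycycline effects, sh1487 minus shNT, was below 0 and passed the test in 38 members, was above 0 in 1 and did not pass in 1, with a median of −1.15. Over all genes the difference passed the test downwards in 34.4% and upwards in 36.2%. Both comparisons share the libraries of the sh1487 line, so the second is not separate evidence for the first. Summed fibroblast markers (5 of 7 in the table) were at 63.92 to 68.03 CPM in the sh1487 line without and 38.1 to 41.8 CPM with doxycycline, and mitochondrial reads at 11.4% to 12.1% and 12.9% to 13.5%. With shNT the same markers were at 104.4 to 112.9 CPM without and 127.4 to 150.8 CPM with doxycycline, and mitochondrial reads at 13.1% to 14.1% and 9.98% to 13.6%. Summed leukocyte markers (2 of 6 in the table) were at 43.42 to 47.88 CPM without and 47.17 to 48.91 CPM with doxycycline in sh1487. In shNT they were at 34.43 to 38.57 and 27.79 to 33.33 CPM. Summed erythroid markers (2 of 3) were at 12.72 to 13.42 and 6.99 to 9.44 CPM in sh1487. In shNT they were at 1.11 to 1.61 and 1.71 to 2.4 CPM. The endothelial marker CLDN5 did not exceed 1.33 CPM in any library. The part of any of these in these results was not tested.

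**Figure D2:**
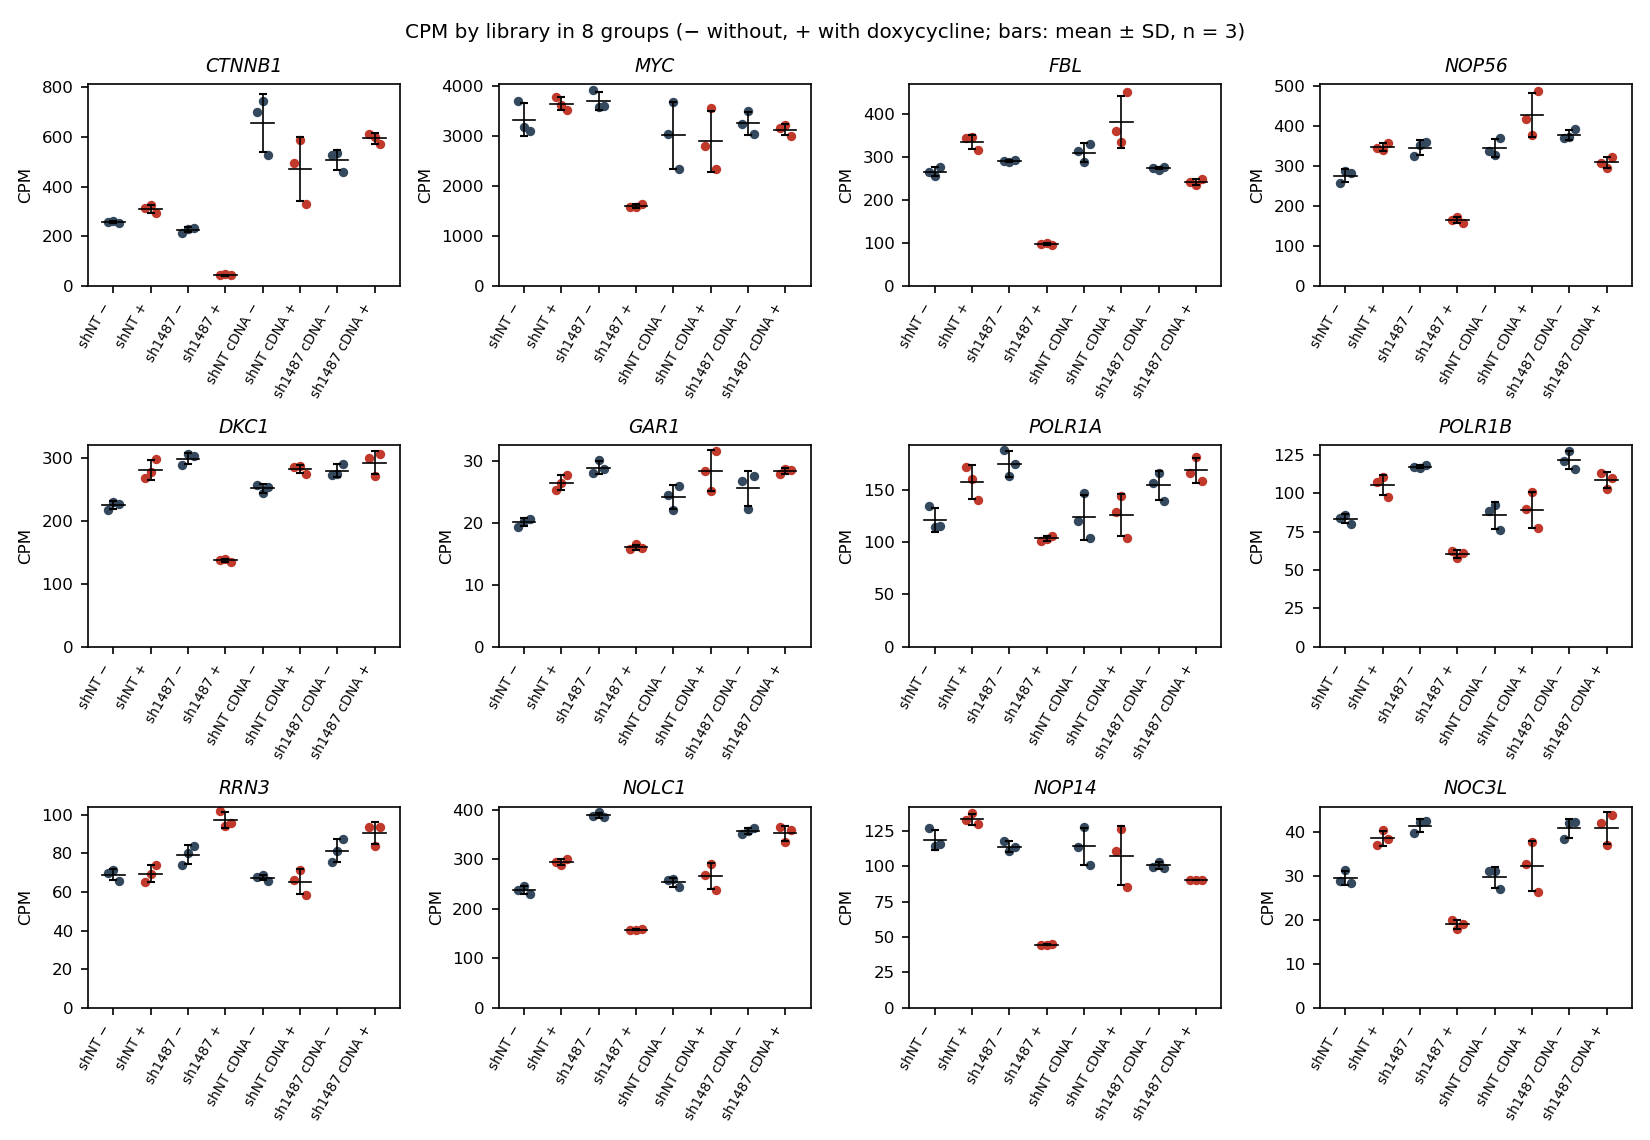
CPM in each library for CTNNB1, MYC and 10 members in the 8 groups, − without and + with doxycycline; points are libraries, and bars are mean ± SD (n = 3). In the sh1487 + group the members other than RRN3 sit at their lowest mean, as do CTNNB1 and MYC, while RRN3 sits at its highest mean, 97.3 CPM.

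The box C/D ribonucleoprotein genes all fell, 3 of 3. FBL, which encodes fibrillarin, the methyltransferase that modifies ribosomal RNA, stood at 289.7, 287.3 and 292.9 CPM in the sh1487 line without doxycycline and at 96.75, 100.5 and 94.82 CPM with it. In the shNT line the values were 264.8, 255.6 and 276.6 CPM without and 343.9, 345.6 and 315.8 CPM with doxycycline. The groups did not overlap in either line, and they moved in opposite directions. The fall was −1.57 ± 0.08 (log2, SE; limma adjusted p = 2.38e-14), the largest among the members, and the difference from shNT was −1.90 ± 0.11 (limma adjusted p = 7.12e-13). NOP56, a core scaffold of the same particles, went from 324.4, 353.6 and 358.7 CPM to 164, 171.1 and 156.8 CPM, again with no overlap (−1.07 ± 0.08 SE, limma adjusted p = 1.54e-11). NOP58, its paralogue, kept 50.9% of its level (−0.97 ± 0.09 SE, limma adjusted p = 3.86e-09).

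The box H/ACA genes divided. DKC1, the pseudouridine synthase dyskerin, went from 289.1, 305.8 and 302.7 CPM to 137.2, 139.7 and 135.2 CPM, and every library on doxycycline was below every library without it (−1.12 ± 0.05 SE, limma adjusted p = 2.04e-14). GAR1, which binds the catalytic core, went from 28.01, 30.1 and 28.69 CPM to 15.79, 16.57 and 16 CPM (−0.81 ± 0.08 SE, limma adjusted p = 5.16e-09). NHP2, a core RNA-binding subunit, kept 71.4% (−0.47 ± 0.06 SE, limma adjusted p = 6.57e-07). NOP10, the smallest core subunit, had 40.81, 42.26 and 44.27 CPM without and 41.02, 41.17 and 37.74 CPM with doxycycline. These groups overlapped, and neither the change (−0.09 ± 0.11 SE, limma adjusted p = 4.85e-01) nor the difference from shNT (−0.23 ± 0.15 SE, limma adjusted p = 1.83e-01) passed the test. The 4 proteins form one complex; the differences between their changes were not tested.

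Of the 4 RNA polymerase I genes, 3 fell and 1 rose. POLR1B, the second-largest polymerase subunit, went from 117.3, 116.6 and 118.2 CPM to 62.11, 57.63 and 61.27 CPM (−0.95 ± 0.08 SE, limma adjusted p = 3.63e-10). POLR1A, the largest subunit, went from 188.1, 163.3 and 174.3 CPM to 101.6, 103.3 and 105.9 CPM (−0.75 ± 0.12 SE, limma adjusted p = 4.54e-06). UBTF, which binds the ribosomal DNA promoter, kept 79.1% of its level (−0.34 ± 0.05 SE, limma adjusted p = 1.49e-06). In all 3 the groups did not overlap.

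RRN3, the initiation factor that brings the polymerase to the promoter, was the exception. It stood at 74, 80.38 and 83.84 CPM without and 102.1, 94.33 and 95.6 CPM with doxycycline in the sh1487 line, with every library on doxycycline above every library without. In the shNT line it was at 69.94, 71.2 and 65.81 CPM and at 65.11, 69.25 and 74.09 CPM, which overlapped. The rise was 0.29 ± 0.07 (log2, SE; limma adjusted p = 1.20e-03) and the difference from shNT was 0.28 ± 0.10 (limma adjusted p = 2.00e-02). The latter call was lost without the first library of shNT on doxycycline, without the first of sh1487 on it, or without the first of sh1487 off it. RRN3 overlaps PDXDC1 in GENCODE v29 and has 3 named pseudogenes, so its counting is uncertain; PDXDC1 itself fell (−0.28 ± 0.05 SE, limma adjusted p = 7.21e-05).

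The 4 nucleolar chaperones and scaffolds fell by a nearly equal amount, from −1.30 (NOLC1) to −1.17 (GNL3), and with a class median of −1.21, the lowest of the 6 role classes. NOLC1, a phosphoprotein that accompanies small nucleolar ribonucleoproteins, went from 388.3, 394.7 and 384.9 CPM to 157.6, 157.1 and 158.8 CPM (limma adjusted p = 5.63e-15). In the shNT line NOLC1 rose from 237.3, 246.8 and 230.2 CPM to 293.5, 288.5 and 301.1 CPM, and the difference of effects was −1.60 ± 0.08 (SE, limma adjusted p = 1.22e-13). GNL3, the GTPase nucleostemin, went from 191.5, 207.1 and 208.5 CPM to 89.26, 89.45 and 89.05 CPM (limma adjusted p = 3.03e-11). The most abundant members per length belong to this class: nucleophosmin (NPM1) was at 558 ± 26.4 RPKM (CPM per kilobase of the deposited length; SD, n = 3) and nucleolin (NCL) at 250 ± 7.2 RPKM in the sh1487 line without doxycycline, and at 234 ± 5.1 and 111 ± 1.69 RPKM with it. FBL followed at 133 ± 1.27 RPKM, and the lowest member was PPAN, at 1.3 RPKM. NPM1 has 45 named pseudogenes, so its counting is uncertain.

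All 12 small subunit genes fell, with a median change of −0.80. NOP14, a processome factor that binds the 18S precursor, went from 117.9, 110.7 and 113.4 CPM to 44.4, 44.49 and 44.9 CPM, a tight group far below the other (−1.33 ± 0.09 SE, limma adjusted p = 1.49e-11). Its difference from shNT was −1.50 ± 0.13 (SE, limma adjusted p = 1.15e-09). RRP9, a U3 ribonucleoprotein subunit, went from 41.02, 41.68 and 40.27 CPM to 20.42, 21.56 and 19.73 CPM (−0.96 ± 0.09 SE, limma adjusted p = 2.10e-09). HEATR1 and WDR43, processome components, kept 46.7% and 48.5% of their levels. TSR1, UTP20, RRP12, UTP4, UTP15, NOC4L and WDR75 kept between 53.6% and 81.1%. BYSL, which encodes bystin of the 40S precursor, kept 88.6% (−0.17 ± 0.07 SE, limma adjusted p = 3.71e-02), and this call was lost with DESeq2 size factors, with library size alone for scaling, and without library 1 or 3 on doxycycline or library 2 or 3 off it. For WDR75 (−0.30 ± 0.09 SE), the call for the difference from shNT was lost without the third shNT library on doxycycline.

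All 13 large subunit genes fell, with a median change of −0.77. NOC3L, a nucleolar complex protein, went from 39.71, 42.15 and 42.35 CPM to 20.03, 17.84 and 19.05 CPM (−1.09 ± 0.09 SE, limma adjusted p = 5.51e-10). RRS1, which helps to load the 5S particle, went from 33.92, 35.34 and 30.58 CPM to 15.09, 15.98 and 14.74 CPM (−1.07 ± 0.09 SE, limma adjusted p = 5.66e-10). The PeBoW complex of PES1, BOP1 and WDR12, which matures the 60S subunit, fell as a whole: PES1 kept 63.4%, BOP1 71.1% and WDR12 62% of their levels. RRP1B, NOP16, NOP2, WDR74, LAS1L and PPAN kept between 44% and 61.4%. NOC2L kept 86.7% (−0.20 ± 0.07 SE, limma adjusted p = 1.41e-02), a call lost with library size alone for scaling, as well as when either library 3 on doxycycline or library 1 off it was left out. NIP7, a factor of late 60S maturation, stood at 43.98, 44.66 and 44.13 CPM without and 40.34, 38.7 and 40.79 CPM with doxycycline; the groups did not overlap, the change was −0.14 ± 0.06 (limma adjusted p = 3.11e-02) and the difference from shNT −0.24 ± 0.08 (limma adjusted p = 1.34e-02). Its call for the change was lost under both other scalings and without any library of the 6 but the third on doxycycline.

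For comparison, the same members are given in the shNT line, where doxycycline and what it does to that hairpin cannot be told apart. NOP56 stood there at 257.5, 286.3 and 283.3 CPM without and at 345.1, 339.4 and 357.8 CPM with doxycycline, DKC1 at 217.7, 230.5 and 227 CPM and at 267.8, 277.7 and 298.2 CPM. GAR1 went from 19.35, 20.4 and 20.65 CPM to 25.3, 26.49 and 27.82 CPM, and RRS1 from 35.66, 34.22 and 37.88 CPM to 45.66, 44.2 and 47.31 CPM. In these 4 genes the groups did not overlap and the rise passed the test (limma adjusted p = 1.52e-03, 9.62e-05, 7.59e-04 and 6.57e-03). POLR1B rose from 84.1, 85.69 and 80.17 CPM to 107.1, 110.4 and 97.79 CPM, with no overlap (limma adjusted p = 2.76e-03). RRP9 rose from 26.92, 27.45 and 30.41 CPM to 37.91, 39.94 and 35.78 CPM (limma adjusted p = 1.20e-03), and NOC3L from 28.88, 31.34 and 28.27 CPM to 36.97, 40.32 and 38.37 CPM (limma adjusted p = 3.50e-03). NOP14 was at 126.9, 114.2 and 115.5 CPM and at 132.6, 137.7 and 129.9 CPM, groups that did not overlap but whose difference did not pass the test (0.17 ± 0.09 SE, limma adjusted p = 1.72e-01). GNL3, at 143.5, 159.8 and 152.2 CPM and at 158.3, 172.5 and 197.3 CPM, overlapped narrowly (0.21 ± 0.09 SE, limma adjusted p = 6.23e-02). NPM1, the most abundant member, was at 1444, 1588 and 1593 CPM and at 1350, 1403 and 1644 CPM, with wide overlap (−0.08 ± 0.10 SE, limma adjusted p = 6.05e-01).

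**Figure D3:**
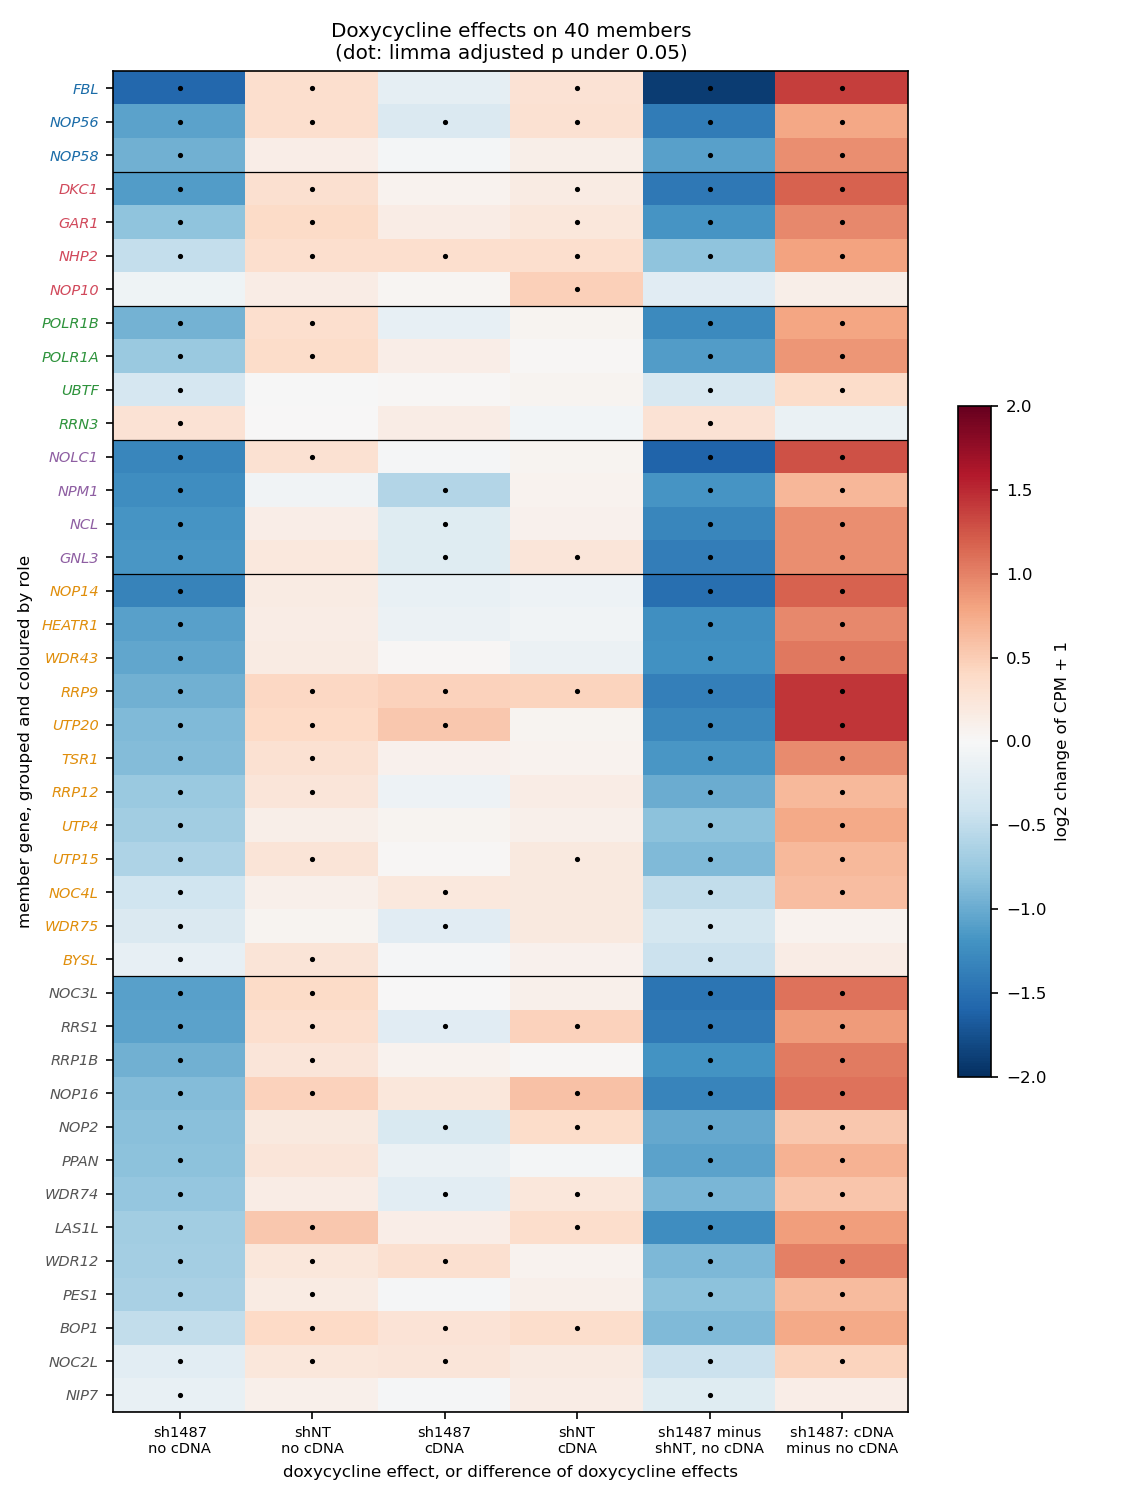
Log2 change of CPM plus 1 for each of the 40 members (vertical axis, grouped and coloured by role) in the 4 doxycycline comparisons and 2 differences of effects (horizontal axis); a dot marks a limma adjusted p under 0.05. In the first column every member but RRN3 is below 0, the shNT columns hold no blue cell with a dot, and the last column is red with a dot for 35 members.

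In the sh1487 line without cDNA scaling changed few calls of members, but it moved their median and the split of calls over all genes. With library size alone the members' median change was −0.73 and that of all genes 0.11, and 36 members passed the test, 35 lower and 1 higher. The calls over all genes then split into 4311 lower and 6025 higher, against 5193 and 5175 with the authors' scaling. Elsewhere library size alone changed more calls of members. For doxycycline in shNT without cDNA 7 more members passed. In sh1487 with cDNA 5 more passed and 1 was lost.

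With cDNA, most members of the sh1487 line stayed near their starting level on doxycycline. Of the 40, 8 fell and 7 rose, 25 did not pass the test, and the median change was 0.01; of all genes tested 31.3% fell and 28.3% rose. Members kept 66.1% (NPM1) to 146% (UTP20) of their level, with a median of 101% and 0 members under 50%. Their summed level was 8096 ± 381.3 CPM without and 7108 ± 237.2 CPM with doxycycline (SD, n = 3). Most of this decrease came from 2 members, NPM1 (means of 2131 and 1409 CPM) and NCL (1678 and 1420 CPM). Between the groups, 11 members had every library on doxycycline below and 11 every library above, against 35.8% and 32.6% of tested genes.

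The doxycycline effect with sh1487 was higher with cDNA than without it: this difference was above 0 and passed the test in 35 members and in 0 below it, with a median of 0.82. The lines' own changes enter this difference, so it is not separate evidence. Over all genes, 27.2% differed upwards and 32.9% downwards. The 5 that did not pass were NOP10, RRN3, WDR75, BYSL and NIP7. For FBL, doxycycline with cDNA went from 274, 270.2 and 275.9 CPM to 241.8, 235.3 and 248.9 CPM (−0.18 ± 0.08 SE, limma adjusted p = 5.45e-02), and the difference from the line without cDNA was 1.39 ± 0.11 (limma adjusted p = 3.57e-10). These groups did not overlap, yet the decrease was small beside that without cDNA. For NOLC1 the values were 350.9, 356.9 and 363 CPM and 364.8, 335.5 and 358.2 CPM, which overlapped (−0.02 ± 0.06 SE, limma adjusted p = 8.15e-01). NOP14 was at 99.56, 103.4 and 99.12 CPM and then at 90.15, 90.51 and 90.56 CPM (−0.15 ± 0.09 SE, limma adjusted p = 1.64e-01).

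Most other members given in full for the line without cDNA showed no clear change with it. DKC1 was at 273, 274.8 and 291.4 CPM without and 300.6, 272.1 and 306.2 CPM with doxycycline in the sh1487 line with cDNA (0.06 ± 0.05 SE, limma adjusted p = 3.11e-01). NOC3L was at 38.31, 42 and 42.16 CPM and at 41.95, 36.92 and 43.77 CPM, with overlap and a change of 0.00 ± 0.09 (SE) that did not pass the test. POLR1A was at 156.8, 166.1 and 139.6 CPM and at 166.1, 181.6 and 158.2 CPM (0.13 ± 0.12 SE, limma adjusted p = 3.45e-01). GAR1 was at 26.78, 22.32 and 27.67 CPM and at 27.91, 28.8 and 28.55 CPM, above the other group but not past the test (0.15 ± 0.08 SE, limma adjusted p = 1.06e-01). POLR1B lay lower on doxycycline, at 113.2, 102.8 and 110 CPM against 121.1, 127.5 and 115.5 CPM, and did not pass either (−0.16 ± 0.08 SE, limma adjusted p = 9.50e-02). For these 5 genes the difference between the lines with and without cDNA passed the test, at 1.18 ± 0.08 for DKC1, 1.09 ± 0.13 for NOC3L, 0.88 ± 0.16 for POLR1A, 0.96 ± 0.11 for GAR1 and 0.79 ± 0.11 for POLR1B (log2, SE). RRN3 was at 75.56, 80.98 and 87.6 CPM and at 93.9, 83.72 and 93.77 CPM, and NOP10 at 46.93, 45.12 and 53.69 CPM and at 51.53, 44.81 and 53.17 CPM. Both overlapped, and for both the difference from the line without cDNA did not pass (−0.14 ± 0.10 and 0.12 ± 0.15 SE; limma adjusted p = 2.57e-01 and 5.12e-01).

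The members that still fell with cDNA included 3 of the 4 nucleolar scaffolds. NPM1 fell from 1954, 1997 and 2442 CPM to 1434, 1315 and 1479 CPM, with no overlap (−0.59 ± 0.10 SE, limma adjusted p = 5.27e-05). NCL and GNL3 kept 84.6% and 84.4% of their levels (limma adjusted p = 2.89e-03 and 2.00e-02). The other 5 were NOP56, RRS1, NOP2, WDR74 and WDR75, which kept 81.1% to 85.6%. The calls for GNL3 and WDR75 were lost without the second library on doxycycline or the third off it. That for RRS1 was lost under both other scalings, with DESeq2, and without library 1 or 3 on doxycycline or library 1 off it. NOP2, a ribosomal RNA cytosine methyltransferase, changed by −0.30 ± 0.09 (SE, limma adjusted p = 4.53e-03). Its uninduced mean was 140.5 CPM with cDNA and 103.3 CPM without, and its mean on doxycycline with cDNA was 113.9 CPM.

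The 7 that rose with cDNA were UTP20, RRP9 and NOC4L of the small subunit, WDR12, BOP1 and NOC2L of the large subunit, and NHP2. Of these, UTP20, WDR12 and NHP2 started lower in the uninduced line with cDNA than in that without. Their means were 91.12 and 122.7 CPM, 55.43 and 70.22 CPM, and 48.77 and 55.54 CPM. UTP20, a large processome protein, rose from 92.63, 97.37 and 83.37 CPM to 142.5, 123.9 and 132.2 CPM, with no overlap (0.54 ± 0.12 SE, limma adjusted p = 7.37e-04). RRP9 rose from 37.87, 34.91 and 32.36 CPM to 47.81, 50.12 and 47.89 CPM (0.46 ± 0.09 SE, limma adjusted p = 1.42e-04). These 2 genes had the largest differences between the lines with and without cDNA, 1.43 ± 0.17 and 1.42 ± 0.13 (SE). Among the PeBoW genes WDR12 (0.32 ± 0.05 SE, limma adjusted p = 2.68e-05) and BOP1 (0.27 ± 0.11 SE, limma adjusted p = 3.80e-02) rose while PES1 stood at −0.02 ± 0.05 (limma adjusted p = 7.64e-01). The call for BOP1 was lost without library 2 of either group or library 3 of either group, and that for NOC4L without library 2 of either or library 3 off doxycycline.

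**Figure D4:**
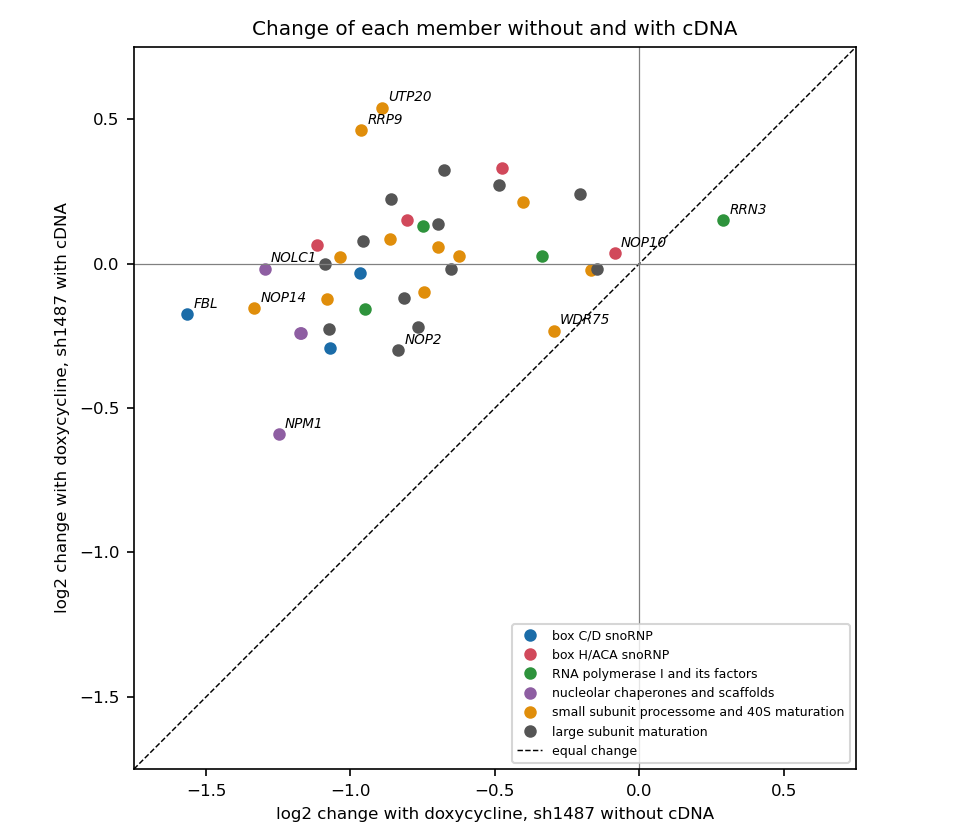
Log2 change with doxycycline in the sh1487 line without cDNA (horizontal axis) and with cDNA (vertical axis); each point is 1 member, coloured by role, and the dashed line marks equal change. All 40 points but RRN3 lie left of 0, while along the vertical axis they spread from −0.59 (NPM1) to 0.54 (UTP20).

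Against the shNT line with cDNA, the doxycycline effect of the sh1487 line with cDNA was lower in 11 members and higher in 2 (WDR12 and UTP20), and 27 did not pass the test; the median difference was −0.10, and 24.6% of tested genes were lower and 22.3% higher. RRS1 (−0.70), NOP2 (−0.67) and NPM1 (−0.67) were lowest. The calls for UTP20, NOP10 and RRP12 were lost with only these groups fitted and, among others, without the third shNT library on doxycycline. In the shNT line with cDNA itself, 15 members rose with doxycycline and 0 fell, with 16.3% of tested genes rising and 15.6% falling. NOP16, a large subunit factor, was highest (0.58, limma adjusted p = 5.38e-04). This count rests on a shared estimate of the spread: members varied most in that group on doxycycline, with a median coefficient of variation of 12.2% against 3.3% to 6.9% in the other 7 groups, and 0 passed in limma when only these 6 libraries were fitted (12 at an unadjusted p under 0.05; over all libraries edgeR called 15 and DESeq2 17). That fit of 6 libraries had no replicate block, although residuals of same-numbered libraries correlated at 0.017, 0.82 and 0.84. It therefore cannot separate shared deviation from other spread. With a block over all 24 libraries the 15 members still passed, and 2 more did. That block takes the same deviation per replicate number in all 8 groups and keeps the shared estimate of the spread. Same-numbered libraries of the sh1487 line without cDNA correlated at −0.22, −0.15 and −0.12. The block over 24 therefore cannot stand in for a block within these 6 libraries. The count of members called was 8 without library 2 off doxycycline and 21, of which 2 were lower, without library 2 on it. FBL, NOP56, NOP10 and RRS1 were highest in the third library on doxycycline, which also held the highest share of mitochondrial reads (21.5%); without that library 10 members passed.

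The uninduced lines were not alike. Without doxycycline and cDNA, 29 members were higher and 4 lower in the sh1487 line than in the shNT line, and 7 did not pass the test; 32.1% of tested genes were higher and 34.1% lower. The summed levels were 8350 ± 141.1 and 6470 ± 116.6 CPM (SD, n = 3), of which NPM1 held means of 2134 and 1542 CPM and NCL 1735 and 1305 CPM. NOC4L, a nucleolar complex protein of the small subunit, was at 50.54, 45.1 and 45.67 CPM in the sh1487 line and at 22.5, 19.8 and 23.49 CPM in the shNT line, the largest such difference (1.07 ± 0.08 SE, limma adjusted p = 1.04e-10). UTP20 (0.90), RRP1B (0.71) and NOLC1 (0.71) followed. The 4 lower members were WDR74, PPAN, NIP7 and UBTF. Among the smaller differences, the calls for HEATR1, WDR75, NOP16, UTP4, RRN3 and PPAN were lost without single libraries. On doxycycline the summed level of the sh1487 line without cDNA, 4120 to 4195 CPM, lay under that of every other group, the next lowest mean being the 6470 CPM of uninduced shNT.

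In the main fit few members passed the test between uninduced lines with and without cDNA. More were separated library by library. With sh1487, 15 members had every library with cDNA below every library without it, and 7 had every library above. This held for 22.9% and 25.6% of tested genes. With shNT 0 members lay below in this way and 13 above, against 13.1% and 12% of tested genes. In the uninduced sh1487 line 3 members were higher with cDNA and 3 lower (UTP20, WDR12 and NHP2), where 13.3% of tested genes rose and 10.3% fell, and NOP2 rose most (0.44, limma adjusted p = 6.92e-04). That total of 6 became 16, of which 11 were lower, when only those 6 libraries were fitted, and 3 without the first library lacking cDNA. In the uninduced shNT line 2 were higher (LAS1L and NOP56) and 0 lower, where 2.39% of tested genes rose and 3.07% fell; same-numbered libraries of these 2 groups deviated together, and with the replicate number as a block within the 6 libraries 5 members passed. In limma on the 6 libraries without the block 0 passed (11 at an unadjusted p under 0.05; over all libraries edgeR called 2 and DESeq2 7). The count was 6 without the second library carrying cDNA, and 1 without the third carrying it or without the first lacking it. CTNNB1 was higher with cDNA in both uninduced lines, by 1.16 ± 0.14 with sh1487 and 1.34 ± 0.14 with shNT (log2, SE; limma adjusted p = 3.47e-06 and 4.49e-06).

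Other genes of the pathway were read from 6 lists set by function, though with earlier results of these data known. Their counts stand beside 37.5% of tested genes that fell and 37.4% that rose in this comparison. Of 12 other RNA polymerase I genes, 9 fell and 0 rose with doxycycline in the sh1487 line without cDNA (median −0.68). Of 40 other small subunit genes 32 fell and 1 rose (median −0.55), and of 48 other large subunit genes 44 fell and 2 rose (median −0.66). Of 10 assembly factors of small nucleolar ribonucleoproteins 8 fell and 0 rose (median −0.63). Of 14 exosome genes, which trim precursor RNA, 10 fell and 0 rose (median −0.36). Of 21 genes of RNA polymerase III, which makes 5S RNA, 12 fell and 5 rose (median −0.21), a median nearer to the 0.01 of all genes.

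Examples were taken by the smallest p in the difference from shNT. POLR1E, a polymerase I subunit, went from a mean of 57.18 to 18.91 CPM (−1.55 ± 0.06 SE, limma adjusted p = 4.60e-16). TCOF1, the nucleolar protein treacle, went from 176.6 to 78.53 CPM (−1.16 ± 0.07 SE, limma adjusted p = 3.59e-12). MAK16 and NLE1, large subunit factors, went from 27.49 to 9.23 CPM and from 47.99 to 14.9 CPM. UTP18, of the small subunit processome, went from 81.83 to 39.58 CPM, RUVBL1, an assembly ATPase, from 137.8 to 71.47 CPM, and EXOSC2, an exosome subunit, from 97.29 to 41.61 CPM. GTF3A, the 5S gene transcription factor, went from 222.8 to 125.2 CPM. Means in the sh1487 line with cDNA went from 30.06 to 16.3 CPM for MAK16 and from 48.01 to 33.16 CPM for NLE1. POLR1E went there from 52.17 to 42.02 CPM, RUVBL1 from 129.3 to 125.1 CPM and EXOSC2 from 93.88 to 87.59 CPM. TCOF1 went up from 155.6 to 183.6 CPM, UTP18 from 72.71 to 86.32 CPM and GTF3A from 207.4 to 220.7 CPM. With cDNA, where 31.3% of tested genes fell and 28.3% rose, 4 polymerase I genes fell and 4 rose, 8 small subunit genes fell and 8 rose, and 15 large subunit genes fell and 9 rose. Among the assembly factors 2 fell and 2 rose, among the exosome genes 2 fell and 2 rose, and among the polymerase III genes 5 fell and 9 rose. Most of these counts are near or under the shares of all genes.

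**Figure D5:**
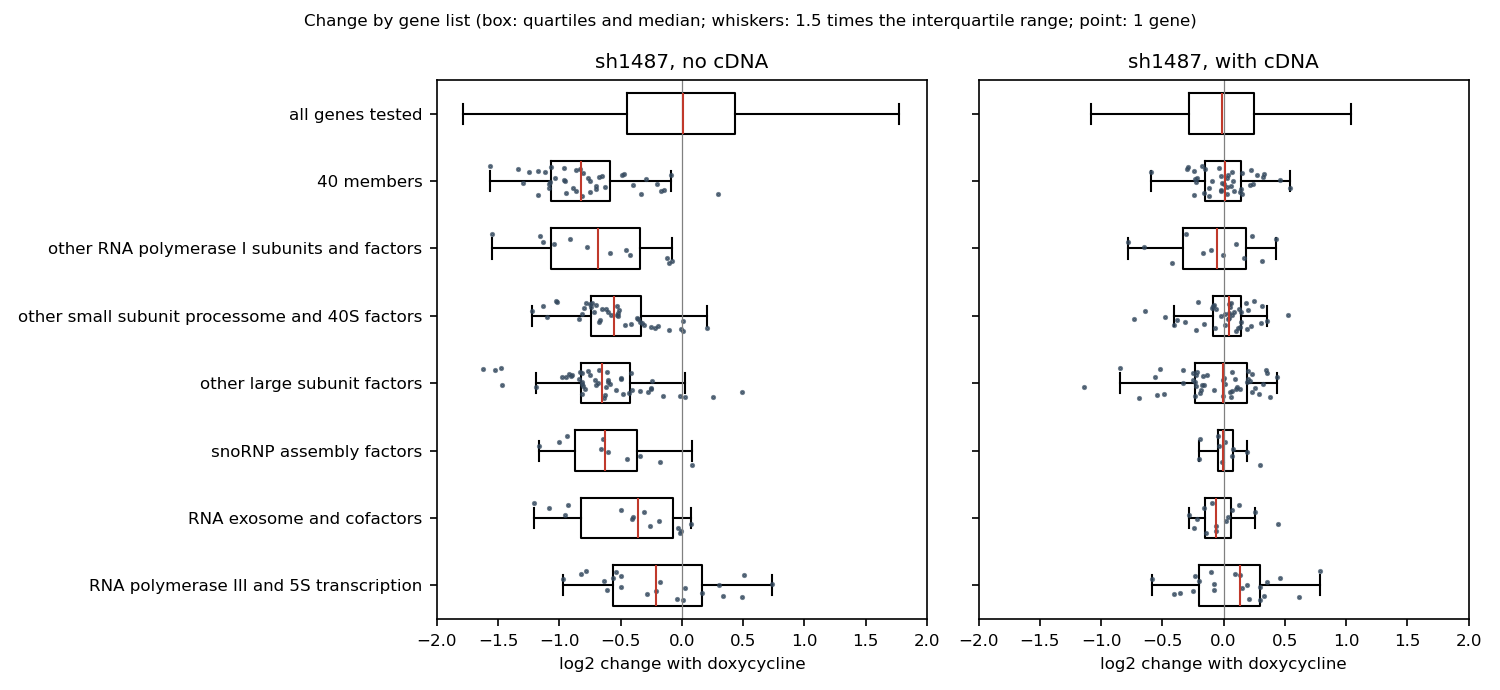
Log2 change with doxycycline in the sh1487 line without cDNA (left) and with cDNA (right) for all genes tested, the 40 members and 6 other lists; points are genes, boxes give quartiles and median, and whiskers reach 1.5 times the interquartile range. On the left the members' median is −0.82 and those of the other lists run from −0.68 to −0.21, while on the right the members' median is 0.01.

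A part of the members also hold other genes. In GENCODE v29 8 of the 40 (20%) hold small nucleolar RNA genes within them, 27 such genes in all, against 1.75% of 13166 protein-coding genes in the table. GNL3 holds 6, NOP56 5, NOP58 4, NCL and WDR43 3 each, and DKC1, TSR1 and PPAN 2 each. The messages of all 8 fell with doxycycline in the sh1487 line without cDNA, as did 38 of the 40 members and 37.5% of tested genes. The small RNAs themselves were not measured. The members lie on 18 chromosomes, with at most 7 on one. The members with CACGTG in the promoter had a median change of −0.89 (n = 11) and those without −0.77 (n = 23), and their ranges, −1.57 to −0.09 and −1.25 to 0.29, overlapped widely. Neither group includes the 6 members without a matched promoter. For the difference from shNT without cDNA the medians were close, at −1.20 and −1.12. For the difference between the lines with and without cDNA the medians were 1.06 and 0.79, with overlapping ranges (0.12 to 1.43 and −0.14 to 1.18). These are descriptions with no test. In all, 13 members overlap another gene of the table, among them NOP14, GNL3, BOP1, WDR12, NOC2L and PPAN, and since the strand setting of the counting is not given in the sources used here, reads of a gene and its overlapping partner cannot be told apart.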

How the data were processed

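Poly(A) RNA was sequenced from 24 xenograft libraries on a NovaSeq S4 after TruSeq stranded mRNA preparation, according to the labels' protocols. The submitters' processing notes name GRCh38, edgeR 4.0.2, Subread 2.4.2, featureCounts, STAR 2.7.7a and Trimmomatic 0.39, with no role or order; the annotation is not given in the sources used here. The authors deposited a signal in CPM of an effective library size, with column sums of 933631.7 to 1137971.1, and a gene length. Dividing by the worth of 1 read gave whole reads for 100% of values (tolerance 0.001).

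A gene was kept when 3 or more libraries held 1 CPM or more (13832 of 14119, which removed 287). The log2 of CPM plus 1 was fitted with 8 group means in limma 3.58.1 (trend option, R 4.3.3), 10 comparisons were made, and p was adjusted by the Benjamini-Hochberg method over all genes tested. Positions are from GENCODE v29, and promoters from RefSeq on GRCh38.p14. The script was tested on simulated data.

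The members and lists were chosen with earlier results of these data known. Values per library are given for CTNNB1 and MYC, the 2 members per role with the largest called difference of doxycycline effects (sh1487 minus shNT, no cDNA), and the 3 largest and 3 smallest such differences; members moving against their class, and 3 genes per list by p, are also named. NPM1, NOC4L and UTP20 were given in full after their values were seen. In the shNT lines without doxycycline the residuals of same-numbered libraries with and without cDNA correlated at 0.11, 0.16 and 0.65. These numbers were therefore taken as pairs in an added fit of those 6 libraries alone, while the main fit used no pairs. No other single comparison had all 3 above 0.1.

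Results were recomputed with library size alone or DESeq2 size factors for scaling, with DESeq2 1.42.0 and edgeR 4.0.16 (quasi-likelihood) run on the recovered reads, with a pseudocount of 5 or 0.1, unfiltered or for means of 5 CPM and above, on the compared groups alone, with the replicate number as a block, and without each library, or the third of both shNT groups with cDNA.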

Additional observations from a re-analysis of the deposited data

Results flagged for a closer look

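The doxycycline effect differed between groups of lines in 3 comparisons, each by a test of the difference itself (limma, adjusted p under 0.05). Between sh1487 and shNT without cDNA it differed in 39 of the 40 members. Between sh1487 and shNT with cDNA it differed in 13 members. Within the sh1487 hairpin it differed between the lines with and without cDNA in 35 members. The percentages of tested genes that differed in either direction were 70.6%, 46.9% and 60.1%.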

How the results depend on the processing

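Single values under an alternative were tallied only for the members picked by the rules given with the processing, many of them for large differences of effects. Of these 3458 values, 3323 kept their side of the threshold, 78 fell short of it, 57 newly passed and 0 reversed. The tally does not give the direction of values that passed in neither setting. With only the groups compared, the members called were 0 in place of 15 for doxycycline in shNT with cDNA, 16 in place of 6 for the cDNA in uninduced sh1487, and 0 in place of 2 for the cDNA in uninduced shNT. The last count was also 5 with library size alone, 7 with DESeq2, and 5 with the replicate block within the 6 libraries, chosen after seeing the data; a block over all 24 libraries changed no other count of calls by over 1.5 times. With each library left out in turn, the members called were 37 to 38 for doxycycline with sh1487 and 19 to 25 with shNT, both without cDNA; 13 to 14 and 8 to 21 with cDNA; 38 to 39, 10 to 16 and 35 for the differences of effects; 3 to 5 and 1 to 6 for the cDNA with sh1487 and shNT; and 28 to 33 for sh1487 against shNT. With library size alone the calls over all genes split into 1811 lower and 3182 higher for doxycycline in shNT without cDNA (2588 and 2561 with the authors' scaling), 3602 and 4506 in sh1487 with cDNA (4330 and 3912), 2525 and 3719 for the difference from shNT with cDNA (3406 and 3082), 875 and 2163 for the cDNA in uninduced sh1487 (1429 and 1844), and 251 and 433 in uninduced shNT (425 and 330). The causes were not tested. Genes with low values, such as PPAN, are measured least precisely, and with 3 libraries a group small changes such as that of NOP10 may be missed.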
